A study of Sus scrofa with 61 samples.

Results

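MARCO, SIGLEC1, FCGR3A and FOLR2 are 4 receptor genes known from macrophages. Their mRNA signal was followed in whole pig liver from the late fetus to the young adult, and which liver cells carried it was not measured. The platform annotation mapped 6 of the 23999 probe-sets without controls to these 4 symbols (of 6765 genes with a symbol), 2 each to MARCO and FCGR3A and 1 each to SIGLEC1 and FOLR2. The genes were picked because their signals differed between the stages of these same arrays, so their stage levels are given as a description and without a test. Whether the receptors varied together among the animals of 1 stage does not depend on the stage means and was tested.

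The 61 livers came from German Landrace offspring, of which 16 were fetuses of 94 days post conception (dpc), 14 newborns of 1 day postnatum (dpn), 15 weaners of 28 dpn and 16 young adults of 188 dpn. All mothers had received a low protein diet during gestation, so every group shared this exposure, and offspring of mothers on another diet are not analysed here. Each liver was hybridised to 1 Affymetrix porcine array, and a value is the log2 of the scanner software's signal, a brightness per probe-set. Per the study's methods the fetuses were delivered by Caesarean section and killed by injection, the 1 dpn piglets were farrowed and also killed by injection, and the pigs of 28 and 188 dpn were fasted overnight, stunned and bled. Farrowing was induced with prostaglandin. The male piglets were castrated and the piglets kept beyond the first days were raised by foster sows. From weaning at 28 dpn to 188 dpn the pigs were reared individually with free access to standard diets. The study took the fetuses from a first experiment and the postnatal pigs from a second. Stage therefore cannot be told apart from delivery between 94 dpc and 1 dpn, or from experiment between 94 dpc and any later stage. Between 1 dpn and 28 dpn it cannot be told apart from fasting, bleeding, castration and fostering. Between 28 and 188 dpn it cannot be told apart from weaning, individual rearing and diet. The animals were chosen as pairs of littermates, which the labels do not identify, and they were treated as independent. Only at 94 dpc and 1 dpn did the study choose a light and a heavy littermate for each pair. The part of this choice in the spreads and correlations within stages was not tested.

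Kupffer cells are the resident macrophages of the liver sinusoids. They are seeded from fetal precursors, and through surface receptors they remove particles, microbes, aged blood cells and immune complexes from portal blood. MARCO is a class A scavenger receptor with a collagenous domain that binds bacteria and particles. SIGLEC1 (sialoadhesin, CD169) binds sialic acid on other cells and on pathogens, and its gene is inducible by type I interferon. FCGR3A (CD16) is a low-affinity receptor for the Fc part of IgG that signals through the adaptor FCER1G, and it is also carried by NK cells and some monocytes. FOLR2 is folate receptor beta, a membrane-anchored folate-binding protein known from tissue-resident macrophages.

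The 4 receptors followed different courses. MARCO stood highest in fetal and weaning livers and lowest in the young adults, SIGLEC1 and FCGR3A peaked at weaning, and FOLR2 was higher at each later stage. Since whole liver was measured, the number of macrophages, the receptor mRNA per macrophage and receptor mRNA from other liver cells cannot be told apart. Levels below are compared only within a probe-set.

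The scavenger receptor MARCO (Entrez Gene 100516298) had a brighter and a dimmer probe-set. The brighter had a log2 signal with a lowest, median and highest value of 6.27, 8.48 and 9.10 at 94 dpc, 6.37, 7.57 and 9.11 at 1 dpn, 7.00, 8.11 and 9.44 at 28 dpn, and 2.91, 5.95 and 6.79 at 188 dpn. The first 3 stages overlapped broadly, whereas every young adult lay below every weaner. The difference of means between 28 and 188 dpn was -2.71 ± 0.36 on the log2 scale (SE, n = 15 and 16), a level 6.56-fold lower in young adults. The earlier steps were small, at -0.60 ± 0.27 from 94 dpc to 1 dpn and 0.61 ± 0.26 from 1 to 28 dpn, and the means of 94 dpc and 28 dpn differed by 0.01. MARCO exceeded the median of its own array in 13 of 16 fetuses, 10 of 14 newborns, all 15 weaners and 2 of 16 young adults, so most young adult values were weak signals. With every value below the array median raised to that median, the last step was -1.45.

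The dimmer MARCO probe-set gave no such course. Its means were 6.79 ± 0.69, 6.80 ± 0.60, 6.17 ± 1.46 and 6.07 ± 0.98 (SD, n = 16, 14, 15 and 16) in order of stage, and it exceeded the array median in at most 4 animals of a stage. Its correlation with the brighter probe-set across the animals of a stage lay between -0.05 and 0.09. The course of MARCO thus rests on 1 probe-set, and the mean of both probe-sets changed by -0.0075 in place of 0.61 from 1 to 28 dpn and by -1.41 in place of -2.71 from 28 to 188 dpn.

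SIGLEC1 (Entrez Gene 397623) was near the bottom of the scale before weaning. Its only probe-set ranged from 2.13 to 5.43 with a median of 3.09 at 94 dpc and from 2.36 to 5.14 with a median of 3.28 at 1 dpn, and it exceeded the array median in 0 of 16 fetuses and 0 of 14 newborns. At 28 dpn the lowest, median and highest values were 5.19, 7.33 and 8.17, so that all weaners lay above all newborns by a narrow margin, and 11 of 15 exceeded the array median. At 188 dpn the values were 2.08, 5.55 and 7.13, with 1 of 16 above the array median, and the stage overlapped all others. The mean difference was 3.51 ± 0.36 from 1 to 28 dpn and -2.08 ± 0.39 from 28 to 188 dpn. Low intensities leave the size of these steps uncertain. A pseudocount of 16 gave 2.41 for the first of them, and raising weak values to the array median gave 0.18 and -0.67.

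FCGR3A (Entrez Gene 397684) was bright in every liver. Its brighter probe-set ranged from 9.91 to 10.78 (median 10.53) at 94 dpc and from 9.58 to 11.28 (median 10.35) at 1 dpn, and the means of these stages differed by 0.01 ± 0.16. At 28 dpn it ranged from 12.03 to 13.42 (median 12.67) and lay above all fetuses and newborns. The difference between the means of 1 and 28 dpn was 2.23 ± 0.18, a 4.70-fold higher signal. At 188 dpn it ranged from 11.57 to 12.49 (median 11.98), overlapping with 28 dpn and still above every fetus and newborn, and the mean was 0.68 ± 0.13 below that of 28 dpn. The dimmer probe-set of this gene exceeded the array median in at most 5 animals of a stage, and its means of 5.97, 5.86, 6.43 and 5.42 differed by 0.57 ± 0.36 from 1 to 28 dpn and by -1.01 ± 0.40 from 28 to 188 dpn. The mean of both probe-sets changed by 1.40 from 1 to 28 dpn.

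FOLR2 (Entrez Gene 396853) covered the widest range of the 4 receptors. Its probe-set ranged from 7.98 to 8.90 (median 8.59) at 94 dpc, from 7.92 to 10.94 (median 10.03) at 1 dpn, from 13.84 to 14.93 (median 14.15) at 28 dpn and from 14.59 to 15.39 (median 14.84) at 188 dpn. All weaners and young adults lay above all fetuses and newborns, and the neighbouring stages on either side of this gap overlapped. The differences between consecutive stage means were 1.30 ± 0.20, 4.33 ± 0.21 and 0.68 ± 0.10, and the signal of the young adults was 79.7-fold that of the fetuses. Newborns were the most varied, with 8.12-fold between the highest and the lowest animal, while at the other stages this ratio lay between 1.74 and 2.13. Without the lowest newborn, left out after the data were seen, the ratio was 4.18.

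**Figure D1:**
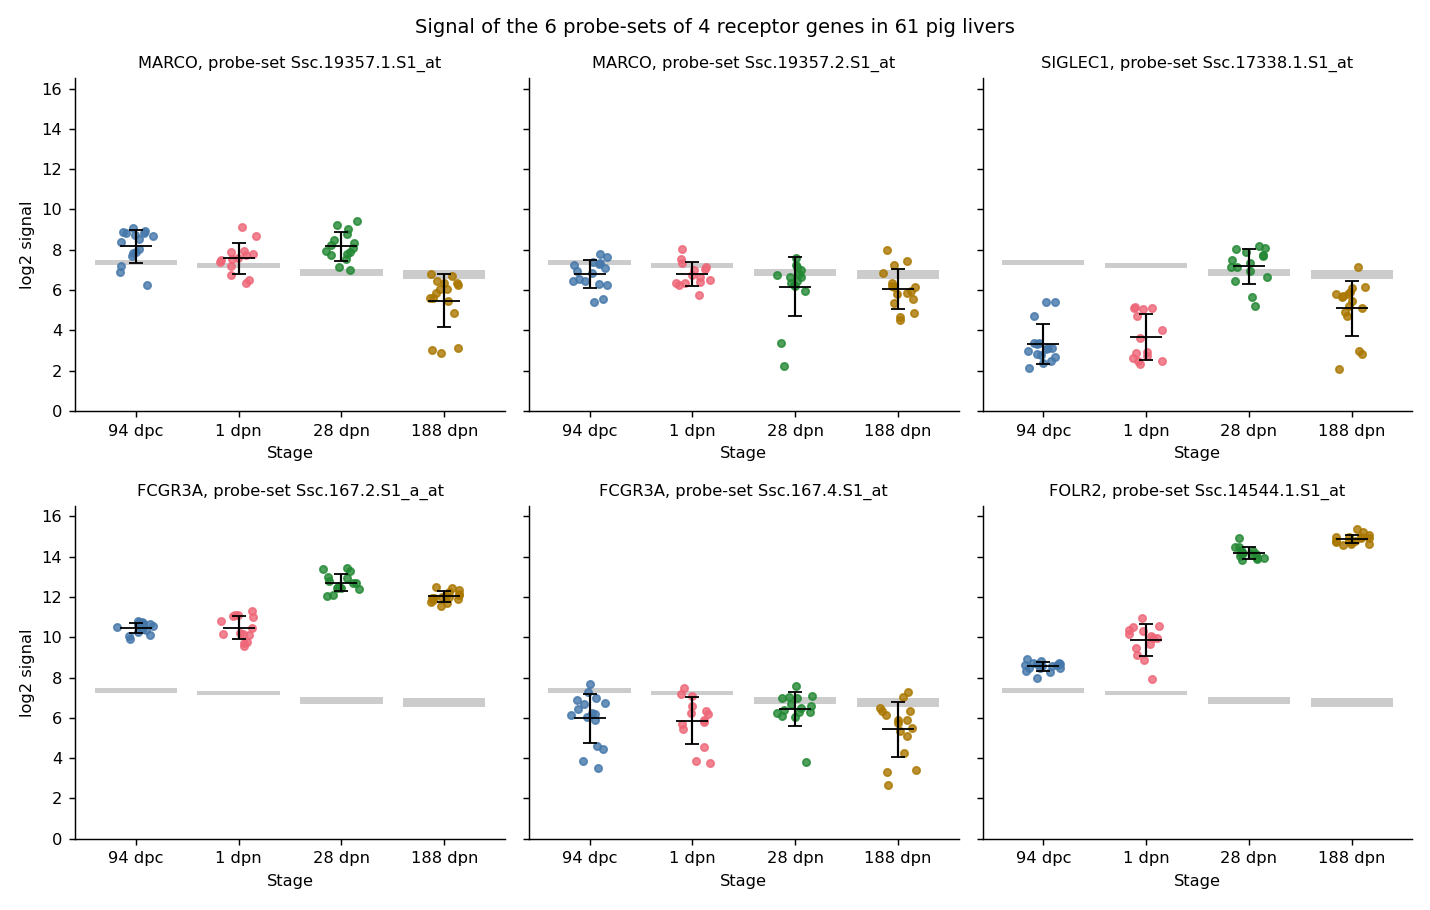
The log2 signal of each probe-set (y axis) is plotted for the 61 animals by stage (x axis), with the stage mean and SD in black and the range of array medians in grey. FOLR2 lies at 8.55 ± 0.23 in fetuses and 14.87 ± 0.22 in young adults, the brighter MARCO probe-set drops below the array medians at 188 dpn, and the dimmer MARCO and FCGR3A probe-sets lie mostly below the array medians.

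Between 1 and 28 dpn 3 of the 4 receptors had stage ranges that did not overlap, all higher at 28 dpn, which held for 4.09% of the 12146 probe-sets tested in that period. Between 28 and 188 dpn 1 of 4 did so, MARCO, which was lower, against 0.855% of 10992 probe-sets. As the receptors were chosen on these contrasts, nothing is read from these counts. The array medians fell with age, from a stage median of 166 signal units at 94 dpc to 149, 117 and 101 at the later stages, and in the 3 periods the tested probe-sets had median changes of -0.16, -0.14 and -0.14. Quantile normalization moved these medians to -0.03, 0.02 and 0.00, and subtraction of each array median to 0.02, 0.27 and 0.07. None of the 12 receptor differences changed sign under either scaling. The arrays also differed in the signal of the 3' over the 5' beta-actin probe-set, by 2.27 and 1.78 (log2 means) at 94 dpc and 1 dpn and by 3.94 and 4.03 at 28 and 188 dpn, and the part of such differences in the receptor levels was not tested.

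A list of 25 macrophage genes without the receptors was compared between consecutive stages with limma, and a gene counted as changed where both P and the Storey q-value were at most 0.05. The list had 15 genes with a probe-set, all above the array median in 50% or more of the animals of every stage. From 94 dpc to 1 dpn 6 rose and 1 fell of 15 tested, while 26.1% of all tested probe-sets rose and 41.6% fell. The median change of the list was 0.16. The largest changes were those of CD14, the endotoxin co-receptor, which rose by 1.81 ± 0.17, and CD163, the haemoglobin scavenger receptor, which rose by 1.13 ± 0.15. CD5L, a secreted scavenger protein, rose by 0.75 ± 0.13, GP91-PHOX (the oxidase subunit CYBB) by 0.62 ± 0.16 and the adaptor TYROBP by 0.45 ± 0.12. The protease CTSS fell by 0.58 ± 0.12.

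From 1 to 28 dpn 11 macrophage genes rose and 1 fell of 15 tested, with a median change of 1.24, while 28.9% of all tested probe-sets rose and 41.4% fell. The complement receptor VSIG4 rose by 2.11 ± 0.13, TYROBP by 1.98 ± 0.12, the complement component C1QC by 1.94 ± 0.11, the lysosomal membrane protein LAPTM5 by 1.80 ± 0.14, CTSS by 1.68 ± 0.10 and FCER1G by 1.66 ± 0.16. The mannose receptor MRC1 was the 1 that fell, by 0.61 ± 0.11. CD163 and CD14 did not pass the test in this period, with differences of 0.33 and -0.05.

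From 28 to 188 dpn 2 macrophage genes rose and 10 fell of 14 tested, with a median change of -0.59, while 18.3% of all tested probe-sets rose and 35.7% fell. CD163 fell by 1.52 ± 0.18, GP91-PHOX by 1.22 ± 0.17, the complement component C1QA by 0.97 ± 0.14, VSIG4 by 0.96 ± 0.10, the calcium-binding protein AIF1 by 0.89 ± 0.10 and LAPTM5 by 0.81 ± 0.11. HMOX1, which degrades haem, and the protease LGMN were the 2 that rose, by 0.55 and 0.28. Of the receptors, MARCO, SIGLEC1 and FCGR3A were lower at 188 than at 28 dpn and FOLR2 was higher.

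**Figure D2:**
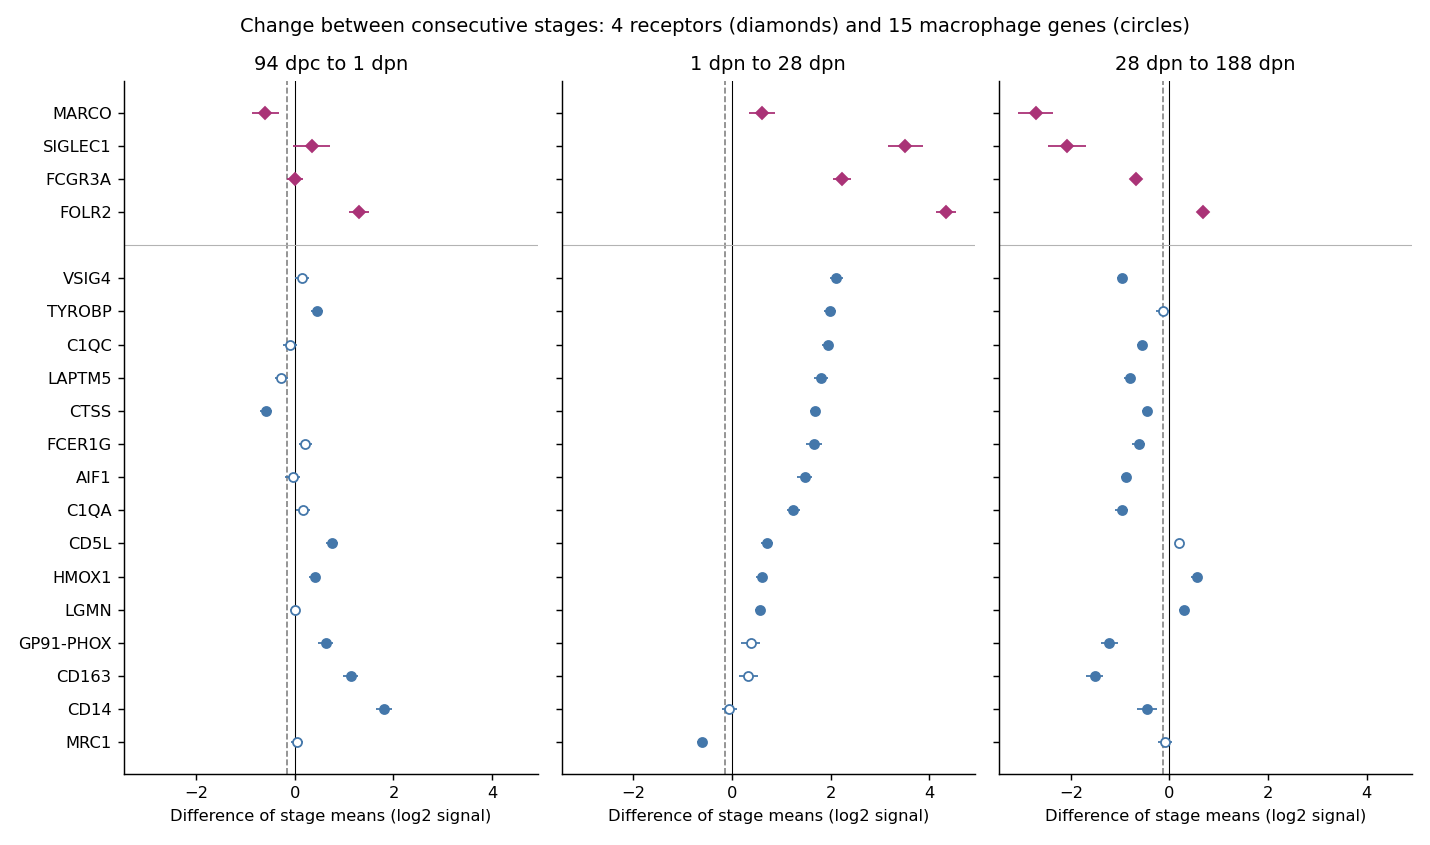
Differences of stage means (x axis, log2 signal, later minus earlier, bars 1 SE) are shown for the 4 receptors (diamonds) and 15 macrophage genes (circles, filled where limma's P and q were at most 0.05) in the 3 periods. The dashed line marks the median over every tested probe-set, and CD5L, untested in the last period, has no bar there. In the middle panel 11 macrophage genes lie to the right of 0 as filled circles, and in the right panel 10 lie to the left.

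Among genes of Fc receptor signalling, 8 had a probe-set. Of those tested, 3 of 6 rose and 0 fell from 94 dpc to 1 dpn, 5 of 7 rose and 1 fell from 1 to 28 dpn, and 2 of 5 rose and 2 fell from 28 to 188 dpn, with median changes of 0.26, 0.37 and 0.22. The shares of all tested probe-sets given above, 26.1%, 28.9% and 18.3% higher and 41.6%, 41.4% and 35.7% lower in order of period, stand beside this and all following counts, and with few genes in a list nothing is read from a share near them. FCER1G, the signalling partner of FCGR3A, rose and then fell in the last 2 periods, by 1.66 ± 0.16 and 0.62 ± 0.13. The inhibitory receptor FCGR2B rose by 0.43 ± 0.16 in the first period, the neonatal Fc receptor FCGRT by 0.31 ± 0.09 and the kinase LYN by 0.37 ± 0.10. FCGRT was not tested under quantile normalization. Of the 6 genes tested in that period 1 passed the filter through 94 dpc alone and 1 through 1 dpn alone. In the second period the kinase BTK rose by 0.54 ± 0.16 and CD247, an adaptor of T and NK cells, by 1.44 ± 0.23. The phosphatase PTPN6 fell by 0.91 ± 0.38, a call that was lost under both other scalings and when its probe-sets were averaged. BTK and CD247 passed the filter through 28 dpn alone and PTPN6 through 1 dpn alone, so these calls carry no weight. Over all 8 measured genes 7 had a positive difference in this period, with a median of 0.45. From 28 to 188 dpn BTK fell by 1.13 ± 0.16 and CD247 rose by 0.68 ± 0.14. Both calls of CD247 were lost when its probe-sets were averaged.

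Because FCGR3A is also an NK cell gene, markers of T and NK cells were read beside it. None of the 9 measured markers (CD3D, CD3E, CD3G, CD2, CD8A, GNLY, PRF1, KLRK1 and CD247) exceeded the array median in most animals at 94 dpc or 1 dpn, and none was tested there. Their summed signal ranged from 412 to 747 at 94 dpc, from 375 to 753 at 1 dpn, from 1088 to 5289 at 28 dpn and from 1465 to 3078 at 188 dpn. From 1 to 28 dpn 6 markers were tested, all of which passed the filter through 28 dpn alone, so that their number called carries no weight. Over all 9 measured markers 8 had a positive difference, with a median of 1.73. GNLY, a cytotoxic granule protein, rose by 5.15 ± 0.39 and CD8A by 2.47 ± 0.48. The summed signal was higher at 28 dpn than at 1 dpn, as FCGR3A was, and its part in the difference of FCGR3A was not tested. On deviations from stage means FCGR3A had a median r of -0.04 with 7 of these markers, from -0.24 with CD2 to 0.22 with GNLY, 0.26 with CD8A and 0.28 with CD247.

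The list of scavenger and phagocytic receptors, the family of MARCO, had 9 measured genes, 3 of which, CD163, MRC1 and CD5L, also stand in the macrophage list. Of 7 tested in each period 3 rose and 1 fell, 2 rose and 1 fell, and 1 rose and 3 fell, with median changes of 0.14, 0.24 and -0.09, and nothing is read from these small counts beside the shares of all tested probe-sets. With array medians subtracted the last median turned to 0.17, and 6 of 7 rose from 1 to 28 dpn. CXCL16, a scavenger receptor for oxidised lipoprotein as well as a chemokine, rose by 1.52 ± 0.14 from 1 to 28 dpn. The lysosomal receptor SCARB2 rose by 0.54 ± 0.10 from 94 dpc to 1 dpn, where the mean of its probe-sets changed by -0.23, and fell by 0.58 ± 0.09 from 28 to 188 dpn. The bridging protein MFGE8 fell by 0.51 ± 0.15 in the first period. The lipoprotein receptor SCARB1 fell by 0.37 ± 0.10 in the last period, a call lost with array medians subtracted, when GAS6, a ligand for receptors of apoptotic cells, rose by 1.11 ± 0.33. GAS6 passed the filter through 188 dpn alone, so its call carries no weight, and the call was lost with weak values raised to the array median.

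Around FOLR2, 9 genes of folate uptake and use had a probe-set. Of these, 4 of 8 tested rose and 1 fell from 94 dpc to 1 dpn, 7 of 9 rose and 2 fell from 1 to 28 dpn, and 4 of 8 rose and 1 fell from 28 to 188 dpn, with median changes of 0.21, 0.51 and 0.37. The other folate receptor on the array, FOLR1, rose by 0.84 ± 0.11 and 1.35 ± 0.18 in the first 2 periods, and its difference of -0.39 in the last did not pass the test. The enzymes of folate use differed among themselves. GNMT, which methylates glycine, rose by 4.16 ± 0.23, 1.52 ± 0.22 and 1.02 ± 0.14 in order. SHMT1, which moves carbon from serine to folate, rose by 1.54 ± 0.11 and 1.14 ± 0.10 in the last 2 periods, and ALDH1L1, which oxidises formyl folate, rose by 0.79 ± 0.12, 1.02 ± 0.14 and 1.00 ± 0.11. From 1 to 28 dpn the mean of the ALDH1L1 probe-sets changed by -0.012 and its call was lost. In that period the methionine synthase MTR fell by 0.69 ± 0.28. GGH, which trims folate chains, fell by 1.31 ± 0.11, rose by 0.51 ± 0.10 and fell by 0.42 ± 0.08 in order. The proton-coupled transporter SLC46A1 fell by 0.33 ± 0.14 from 1 to 28 dpn and rose by 0.69 ± 0.10 from 28 to 188 dpn. The falls changed with scaling. From 1 to 28 dpn the 2 called lower became 1 of 8 tested with quantile normalization and 0 of 9 with array medians subtracted. From 28 to 188 dpn the 1 called lower became 2 of 8 and 0 of 7 in the same order. FOLR1 and FOLR2 are related genes, and cross-hybridisation between them was not tested.

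Since SIGLEC1 is an interferon-inducible gene, 12 measured genes of the type I interferon response were set beside it. From 94 dpc to 1 dpn 8 of 10 tested rose and 1 fell, with a median change of 0.85. From 1 to 28 dpn all 12 rose, with a median of 1.99, and from 28 to 188 dpn all 12 fell, with a median of -1.77. Both counts of 12 held under the other scalings, and of the 12 genes 10 passed the filter at both 1 and 28 dpn and 2 at 28 dpn alone. Of the 10 tested from 94 dpc to 1 dpn 2 passed through 1 dpn alone. Over all 12 measured genes 11 had a positive difference in that period, with a median of 0.82. Of the 12 tested from 28 to 188 dpn 1 passed through 28 dpn alone. ISG15, a ubiquitin-like modifier, changed by 2.79 ± 0.42, 2.56 ± 0.52 and -2.30 ± 0.41 in order, the antiviral GTPase MX1 by 2.24 ± 0.47, 2.11 ± 0.49 and -2.48 ± 0.35, and the transcription factor IRF7 rose by 2.71 ± 0.49 and fell by 2.63 ± 0.43 in the last 2 periods. In the first period OAS1 and USP18 rose by 1.72 ± 0.68 and 1.32 ± 0.23, and RSAD2 rose by 2.15 ± 0.63 in the second.

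Interferon genes varied between the animals of a stage. In 1 newborn the summed interferon signal was 87606 against a stage median of 6188 and a next highest value of 11286. Its SIGLEC1 was 2.93, which, like that of every newborn, lay below the array median. The same newborn had the lowest FOLR2 of its stage, 7.92. At 28 dpn the highest sum was 86773 and the next 74599, against a stage median of 18474. In the weaner with the highest sum SIGLEC1 was 7.51, the 7th highest of 15. Across the 61 animals SIGLEC1 had a median r of 0.11 with the 12 interferon genes on deviations from stage means, and FCGR3A 0.28.

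The lineage factors and niche signals of macrophages were described in the same way. Of 9 measured transcription factors, 4 of 7 tested rose and 2 fell, then 3 of 8 rose and 1 fell, then 4 of 8 rose and 1 fell, with median changes of 0.32, 0.17 and 0.13. SPI1 (PU.1), which directs myeloid fate, rose by 1.29 ± 0.19 and, in the last period, fell by 0.69 ± 0.11. In the first period SPI1 passed the filter through the later stage alone, so its rise carries no weight. The factor KLF4, called higher in the last period, likewise passed through the later stage alone. Over all 9 measured factors 6 had a positive difference in the first period and 5 in the last, with medians of 0.31 and 0.0073. IRF8, a factor of monocytes and dendritic cells, fell by 0.57 ± 0.16 and then rose by 2.03 ± 0.16. ID3, a factor linked to Kupffer cell identity, rose by 0.97 ± 0.08 and the oxysterol receptor NR1H3 by 0.75 ± 0.08 from 1 to 28 dpn. The retinoid X receptor RXRA fell by 0.72 ± 0.13 and 1.01 ± 0.16 and then rose by 0.61 ± 0.16, and these 3 calls were lost when its probe-sets were averaged. Of 5 measured niche ligands, 2 of 3, 2 of 4 and 2 of 4 tested rose and 1, 0 and 2 fell, with medians of 0.39, 0.28 and 0.07. From 1 to 28 dpn 1 of the 4 tested passed the filter through 28 dpn alone. The monocyte chemokine CCL2 rose by 0.97 ± 0.17 and 0.67 ± 0.17 and fell by 0.85 ± 0.19. The Notch ligand DLL4 rose by 0.49 ± 0.11 and the CSF1 receptor ligand IL34 by 0.43 ± 0.18 in the last period, and the call of IL34 was lost with weak values raised to the array median and with all stages in 1 fit.

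Markers of other liver cells were read beside the same shares of all tested probe-sets. Of the sinusoidal endothelial list 3 of 6, 2 of 7 and 1 of 6 tested rose and 1, 2 and 3 fell. Its summed signal had medians of 7044, 7836, 11140 and 9026 in order of stage. The sum ranged from 3807 to 8389 at 94 dpc, from 8544 to 13189 at 28 dpn and from 7038 to 12737 at 188 dpn. Of the 7 tested from 1 to 28 dpn 1 passed the filter through 1 dpn alone and 1 through 28 dpn alone. Monocyte markers fell in 1 of 3, 3 of 4 and 1 of 2 tested and rose in none, and 2 of the 4 passed the filter through 1 dpn alone. Another 1 of the 4 passed through 28 dpn alone, as did 1 of the 2 tested from 28 to 188 dpn. The 1 monocyte marker that fell from 94 dpc to 1 dpn was not called under either other scaling. The 7 measured monocyte markers had a median summed signal of 2401, 2048, 884 and 573 in order of stage. From 94 dpc to 1 dpn the median sum of 6 erythroid markers went from 13545 to 2017 and that of 3 megakaryocyte markers from 1058 to 618. From 1 to 28 dpn the median sum of 4 granulopoietic markers went from 3335 to 543. The median sum of 5 proliferation markers was 4201 at 1 dpn, 1618 at 28 dpn and 503 at 188 dpn. Hepatocyte markers fell in 5 of 6 tested from 1 to 28 dpn, a count that became 2 higher and 2 lower of 4 with array medians subtracted. With quantile normalization no hepatocyte marker was tested in that period. The part of these cells in the receptor differences was not tested.

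Co-variation of the 4 receptors was tested within stages. Over 6 pairs and 4 stages 24 correlations between animals were computed, and 0 passed a permutation test with Benjamini-Hochberg adjustment at 0.05, the lowest adjusted p being 0.274. At an unadjusted p of 0.05 there were 3, all of SIGLEC1 with FCGR3A. Their Pearson r was 0.53 at 94 dpc (permutation p = 0.034, n = 16), 0.61 at 28 dpn (permutation p = 0.014, n = 15) and 0.54 at 188 dpn (permutation p = 0.031, n = 16), each with an adjusted permutation p of 0.274, and 0.32 at 1 dpn (permutation p = 0.27, adjusted 0.627, n = 14). Spearman's rho was 0.59, 0.59, 0.51 and 0.39 in the same order of stages, with permutation p of 0.018, 0.023, 0.046 and 0.17 and adjusted p of 0.282, 0.282, 0.367 and 0.44. Without the 2 animals farthest from the median of SIGLEC1, r fell to 0.36 at 94 dpc, 0.48 at 28 dpn and 0.21 at 188 dpn. Leaving out the extremes of SIGLEC1 narrows its range, which can itself lower r. The drop therefore does not show whether few animals carried these relations. SIGLEC1 exceeded the array median in 11 of 15 weaners but in 1 young adult and no fetus or newborn, so that outside 28 dpn these r run on weak signals. Without the arrays whose 3' to 5' differences stood apart, r at 28 dpn was 0.82 over 13 animals, with an adjusted permutation p of 0.0084, the 1 call gained by that choice.

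**Figure D3:**
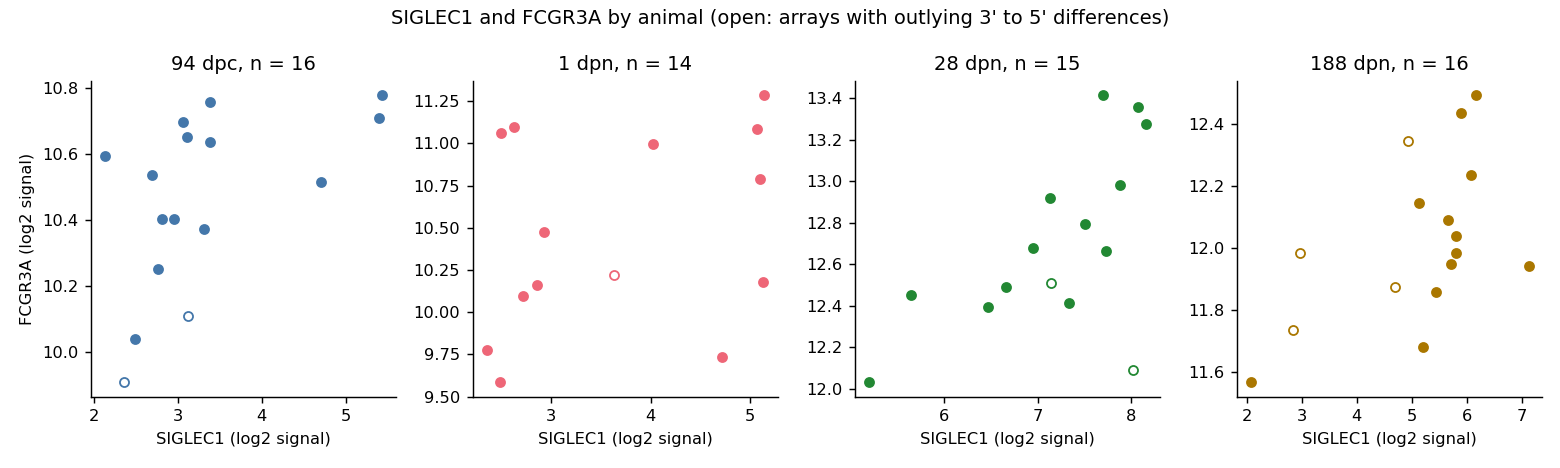
FCGR3A (y axis) is plotted against SIGLEC1 (x axis), both in log2 signal, for the animals of each stage, with its own axis ranges in each panel. Open circles are arrays with outlying 3' to 5' differences, and r was 0.53, 0.32, 0.61 and 0.54 in order of stage, none of which passed after adjustment.

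The pairs with MARCO had r between -0.17 and 0.44. MARCO and FCGR3A gave 0.28, 0.44, -0.17 and -0.08 in order of stage. MARCO and SIGLEC1 gave 0.37 at 94 dpc and between -0.17 and -0.05 at the later stages. FOLR2 and FCGR3A had r of 0.27, 0.40, 0.11 and 0.11 in order of stage, and FOLR2 and SIGLEC1 0.38, 0.24, -0.30 and 0.08. With 14 to 16 animals a stage, modest correlations were not detectable.

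**Figure D4:**
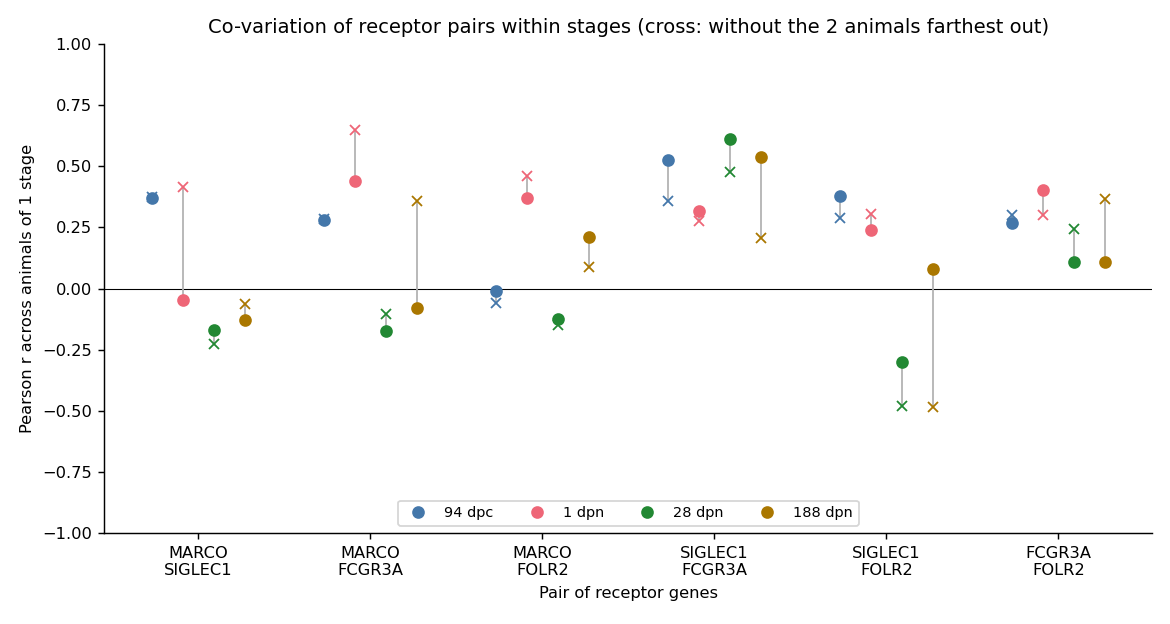
Pearson r between each pair of receptors (x axis) is shown for each stage (colour), with crosses for the value without the 2 animals farthest from the median of the first gene. The 4 circles of SIGLEC1 with FCGR3A lie between 0.32 and 0.61, while those of MARCO with the others lie on both sides of 0.

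Array quality was set beside the receptors in 48 correlations, with the array median and with the 3' to 5' differences of GAPDH and beta-actin. After adjustment 0 passed at 0.05, the lowest adjusted permutation p being 0.158, and 7 had an unadjusted permutation p under 0.05. The largest were FOLR2 with the beta-actin difference at 188 dpn, with r = 0.64 and rho = 0.63 (permutation p = 0.007 and 0.010, n = 16) and r = 0.68 without the 2 farthest arrays, and FCGR3A with the array median at 94 dpc, with r = -0.64 and rho = -0.63 (permutation p = 0.0089 and 0.010, n = 16) and r = -0.76 without the 2 farthest arrays.

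The genes most like each receptor were found among 5508 genes by the r of deviations from stage means over the 61 arrays, which share the array scaling and are given without a test. For FCGR3A they were AIF1 (r = 0.71), C1QC (0.69), CD53 (0.68), SLA-DMB (0.66) and LAPTM5 (0.61), of which AIF1, C1QC and LAPTM5 belong to the macrophage list. CD53 is a leukocyte tetraspanin and SLA-DMB a class II antigen-loading chain. The r of FCGR3A with AIF1 was 0.75, 0.88, 0.63 and 0.33 in order of stage and with C1QC 0.85, 0.83, 0.72 and 0.51. For SIGLEC1 they were PRKCZ (0.44), RNASET2 (0.44), NPL (0.44), FCGR3A (0.43) and GLMP (0.42), and RNASET2 and GLMP are lysosomal proteins.

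FOLR2 and MARCO had other neighbours. For FOLR2 they were TST (0.75), NIPSNAP1 (0.74), FBLN1 (0.70), CDC25B (0.69) and APOF (0.69). TST is a mitochondrial sulfurtransferase and APOF a plasma apolipoprotein, and none of these genes stands in the macrophage list. At 94 dpc the r of FOLR2 with these 5 genes lay between -0.10 and 0.20, and at 1 dpn, where FOLR2 varied most, between 0.82 and 0.89. At 28 dpn it ran from -0.07 with CDC25B to 0.735 with TST. At 188 dpn it ran from 0.21 with NIPSNAP1 to 0.87 with TST, and with APOF it was 0.70. For MARCO they were MTA3 (0.57), CGNL1 (0.41), EFR3A (0.40), LOC100517372 (0.40) and TMPO (0.39), and the r with MTA3 was 0.79 at 188 dpn, where most MARCO values lay below the array median, and 0.09 at 28 dpn.

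The same measure was taken over whole lists. With the 15 macrophage genes the median r was 0.39 for FCGR3A, 0.22 for SIGLEC1, 0.22 for FOLR2 and 0.07 for MARCO. With 8 hepatocyte markers it was 0.18, 0.10, 0.26 and -0.09 in that order, and with 7 sinusoidal endothelial markers 0.26, 0.10, 0.19 and 0.08. The median over all 5508 genes lay between -0.01 and 0.01. Differences between these medians were not tested. The deviations of FOLR2 came mostly from 1 dpn, with an SD of 0.79 against 0.22 to 0.28 at the other stages, and MARCO lay mostly below the array median at 188 dpn.

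**Figure D5:**
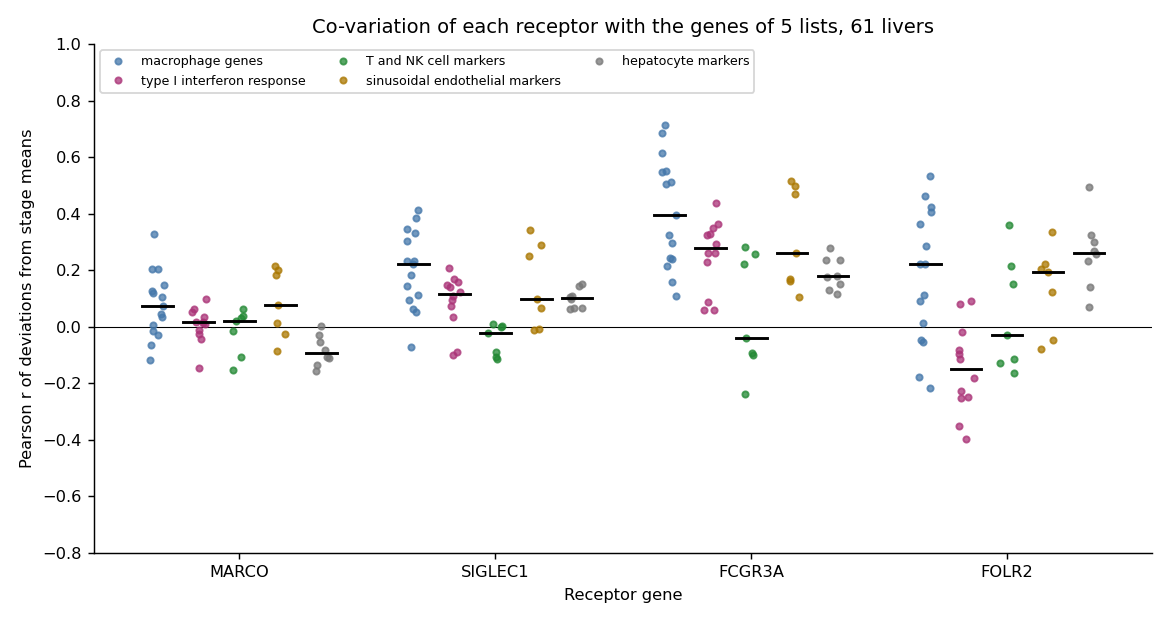
Pearson r of deviations from stage means over 61 livers (y axis) is shown between each receptor (x axis) and each gene of 5 lists (colour), with black bars at list medians. The macrophage genes reach 0.71 with FCGR3A, with a median of 0.39, and lie around a median of 0.07 with MARCO.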

How the data were processed

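The authors deposited linear signal intensities of 24123 probe-sets for 61 arrays, which the submitters' processing notes credit to GCOS 1.1.1, and each array had a mean of about 500.1 to 500.2 after trimming 2% at both ends. The GC-RMA values of the study's methods are not used here. The 124 control probe-sets were set aside and intensities were taken to log2 without a pseudocount. Of the others 10069 had 1 gene symbol, 198 several and 13732 none, and 9961 of the 10069 were matched by gene ID to RefSeq (Sscrofa11.1). Of several probe-sets for a gene, the 1 brightest on average over all arrays was used. Intensity, with no read depth, and the number of arrays limit the precision.

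Each period (94 dpc to 1 dpn, 1 to 28 dpn, 28 to 188 dpn) was fitted with limma 3.58.1 in R 4.3.3 over probe-sets whose SD exceeded 0.25 and whose signal passed the array median in 50% or more of the livers of either stage. Calls needed P and Storey q at or below 0.05. Sex, mother and weight, held in the study's model, are not in the labels. Neighbouring periods share a stage. Standard errors are from these fits, or from a fit without filters for receptor probe-sets that failed them (SIGLEC1 from 94 dpc to 1 dpn and the dimmer probe-sets of MARCO and FCGR3A). Correlations within stages used 100000 permutations, two-sided, in Python 3.11.15. Littermates were treated as independent, so p-values may be too small.

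The receptors and the 19 gene lists, of which 132 of 216 entries had a probe-set, were chosen with earlier results of these data known. Named were all receptor probe-sets, the 5 genes most like each receptor, and from the lists described the called genes with the largest changes (up to 6 macrophage genes and 4 of others per period). HMOX1, LGMN, MRC1 from 1 to 28 dpn, CD163 and CD14 from 1 to 28 dpn, FOLR1 and GGH from 28 to 188 dpn, and MTR, GGH and SLC46A1 from 1 to 28 dpn were named after their values were seen. The siglec list had 1 measured gene, MAG, which was not tested, and the 2 B and plasma cell markers tested from 1 to 28 dpn passed the filter through 28 dpn alone. Of bile duct markers 0, 1 and 0 rose and 0, 2 and 3 fell of 3 tested in each period, and stellate cell and fibroblast markers rose in 1 of 5, 1 of 6 and 1 of 5 and fell in 2, 2 and 0. Of the 6 stellate cell and fibroblast markers 1 passed the filter through 1 dpn alone and 2 through 28 dpn alone. In the last period 1 bile duct marker passed through 28 dpn alone. Alternatives were quantile normalization, subtraction of array medians, the array median as floor, a pseudocount of 16, other filters, adjustments and fits, averaging over a gene's probe-sets, and leaving out arrays, with the newborn of lowest FOLR2 left out after the data were seen. The tests were tried on simulated data.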

Additional observations from a re-analysis of the deposited data

How the results depend on the processing

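Of the 12 receptor differences between consecutive stages, MARCO from 1 to 28 dpn reversed, from 0.61 to -0.0075 with the mean of its probe-sets. Differences within the spread of the animals also turned sign from 94 dpc to 1 dpn, SIGLEC1 from 0.34 to -0.15 with the floor and FCGR3A from 0.0056 to -0.052 when its probe-sets were averaged and -0.040 without arrays with outlying 3' to 5' differences. That mean also gave 1.40 in place of 2.23 for FCGR3A from 1 to 28 dpn and -1.41 in place of -2.71 for MARCO from 28 to 188 dpn. The array median as floor gave 0.18 and -0.67 for SIGLEC1 in the last 2 periods and -1.45 for MARCO in the last, and a pseudocount of 16 gave 2.41 for SIGLEC1 from 1 to 28 dpn. The floor and the pseudocount shrink weak signals by construction, and the cause of the other moves was not tested. With Benjamini-Hochberg adjustment and a log2 change of at least 1, macrophage genes called higher numbered 2 and lower 0 from 94 dpc to 1 dpn (6 and 1 otherwise), lower 0 from 1 to 28 dpn (1 otherwise), and higher 0 and lower 2 from 28 to 188 dpn (2 and 10 otherwise). From 94 dpc to 1 dpn 2 were called lower with the floor, the mean of probe-sets, either removal of arrays or all 4 stages in 1 fit, and quantile normalization left 1 called higher from 28 to 188 dpn. The other 61 counts of macrophage genes stayed within 1.5 times. Of the 24 receptor correlations 1 passed with the floor (MARCO and SIGLEC1 at 188 dpn, r = 0.89, adjusted permutation p = 0.00072, from which nothing is read since 13 of the 16 animals had both genes set to their array median) and 1 after removal of arrays with outlying 3' to 5' differences (SIGLEC1 and FCGR3A at 28 dpn). None passed in the other settings, and none of the 48 with array measures passed under Spearman's rho. Over 93 changes of named list genes and 12 alternatives, 4 values reversed: with the mean of probe-sets TGFB1 (-0.42) and SCARB2 (-0.23) from 94 dpc to 1 dpn and ALDH1L1 (-0.012) from 1 to 28 dpn, and with the floor CD2 (-0.013) from 1 to 28 dpn. Another 75 lost their call in the same direction. The splits of all calls changed with scaling: 3197 rose and 5101 fell in the first period, 3511 and 5031 in the second, 2009 and 3919 in the last. Quantile normalization gave 3820 and 4266, 4336 and 4121, 2740 and 2760, and subtraction of array medians 4149 and 4008, 6020 and 2886, 3630 and 2467. No paired analysis was possible because the labels number the animals uniquely and do not identify littermates.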
